A study of Homo sapiens with 6 samples.

Results

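The genes described here are 36 p53 targets and regulators of apoptosis, listed by symbol and looked up in the deposited count table in all 6 libraries. The table held 35 of them, 22 of the 23 p53 targets and all 13 BCL2 family members and caspases, out of 16199 genes in all. SESN2 was not in the table and is not analysed here. The libraries are RNA-seq of H1 hESCs, an established line of human embryonic stem cells, and cover 3 genotypes with 2 libraries each. The first genotype is labelled hemizygous for DICER1 S1344L and the second homozygous for S1344L, and both were engineered with CRISPR-Cas9. Hemizygous is a term for a gene in a single copy, but the sample titles do not describe the other DICER1 allele. The count columns are headed pmfs for the first genotype and pmpm for the second, which the titles do not spell out. The third is wild type and is the reference for both. All 3 share the H1 background, and no treatment is given in the labels. DICER1 encodes the enzyme that cuts microRNA precursors into mature microRNAs, and the study asked what a cancer hotspot change in it does. The labels do not state if both libraries of a genotype came from 1 culture or clone, and p-values therefore measure the spread between these libraries, which may be technical.

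The transcription factor p53 is kept low in unstressed cells by MDM2 and MDM4, and is stabilised when DNA is damaged or ribosome assembly fails. It then switches on genes that stop the cell cycle (CDKN1A), repair DNA, alter metabolism and start cell death, together with MDM2, which closes a feedback loop. The BCL2 family decides whether mitochondria release cytochrome c: guardians such as BCL2, BCL2L2 and MCL1 hold back the pore-forming effectors BAX and BAK1, and BH3-only proteins such as BBC3 (PUMA), PMAIP1 (NOXA), BID and BIK relieve that hold. Released cytochrome c assembles APAF1 and caspase-9 into the apoptosome. Human embryonic stem cells are known to sit close to the threshold for mitochondrial apoptosis. Several microRNAs that DICER1 makes in these cells are known to act on members of both lists.

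The libraries differed in ways that genotype did not explain. Listed totals were 38164848 to 52924532 counts per library, and the members had between 45 counts (BIK) and 36834 counts (CCNG1). Expression is given in CPM, read counts divided by library size after TMM scaling. The first principal component, with 59.1% of the variance, placed hemizygous 1 at -39.8 and wild type 1 at -34.5, and the other 4 libraries between 3.15 and 28.5. In those 2 libraries the fifth of genes with the longest transcripts was also shifted up, by a median of 0.16 and 0.08 on the log2 scale, against 0.02 to -0.14 in the others. The fifth with the highest GC content was shifted by -0.20 and -0.12, against 0.03 to 0.14 in the others. Of 8 pluripotency markers all 8 were in the table, with a summed level of 7147 to 7989 CPM. Of 6 fibroblast or feeder markers 3 were in the table (COL1A1, COL1A2 and THY1; 622 to 845 CPM in sum), and COL3A1, LUM and DCN were not. Markers of neural, endoderm, streak and mesoderm, and trophoblast cells had 1 of 5, 1 of 4, 2 of 4 and 1 of 5 members in the table, each list at no more than 10.5 CPM in sum. DICER1 itself was at 118 and 96.4 CPM in hemizygous, 129 and 118 CPM in homozygous, and 169 and 126 CPM in wild-type libraries. In bulk RNA, fewer cells that express a gene and less of its RNA per cell cannot be told apart. Values obtained without hemizygous 1, wild type 1 or both are given below for some, not all, of the members and lists whose values they moved.

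Among the 22 p53 targets, a group of well-known p53-induced genes was high in hemizygous 1 and wild type 1 and low in the other 4 libraries. CDKN1A (chr6:36676460-36687339, plus strand, GRCh38) encodes p21, the inhibitor of cyclin-dependent kinases through which p53 halts the cell cycle. It was at 75.7 and 45.0 CPM in hemizygous 1 and 2, 32.8 and 46.2 CPM in homozygous 1 and 2, and 112 and 44.6 CPM in wild type 1 and 2. The 2 high libraries were thus of different genotypes, and hemizygous 2, homozygous 2 and wild type 2 lay close together. MDM2, the ubiquitin ligase that p53 induces and that destroys p53, was at 164 and 105 CPM in hemizygous, 109.5 and 108 CPM in homozygous, and 155 and 98.0 CPM in wild-type libraries. It had the same high libraries, and the homozygous libraries were alike. FAS, the death receptor that recruits caspase-8, was at 13.1 and 6.38 CPM in hemizygous, 6.17 and 5.27 CPM in homozygous, and 11.9 and 4.63 CPM in wild-type libraries. GDF15, a secreted stress cytokine, was at 18.4 and 8.54 CPM in hemizygous, 5.02 and 10.2 CPM in homozygous, and 25.1 and 9.44 CPM in wild-type libraries. In GDF15 homozygous 1 was the lowest library, as it was for CDKN1A. ZMAT3, an RNA-binding regulator of splicing, was at 69.4 and 37.6 CPM in hemizygous, 36.5 and 37.4 CPM in homozygous, and 65.9 and 33.2 CPM in wild-type libraries. TNFRSF10B, the TRAIL receptor DR5, was at 172 and 112 CPM in hemizygous, 112 and 117 CPM in homozygous, and 192 and 129.6 CPM in wild-type libraries. All 6 of these genes had hemizygous 1 and wild type 1 as their highest libraries.

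**Figure D1:**
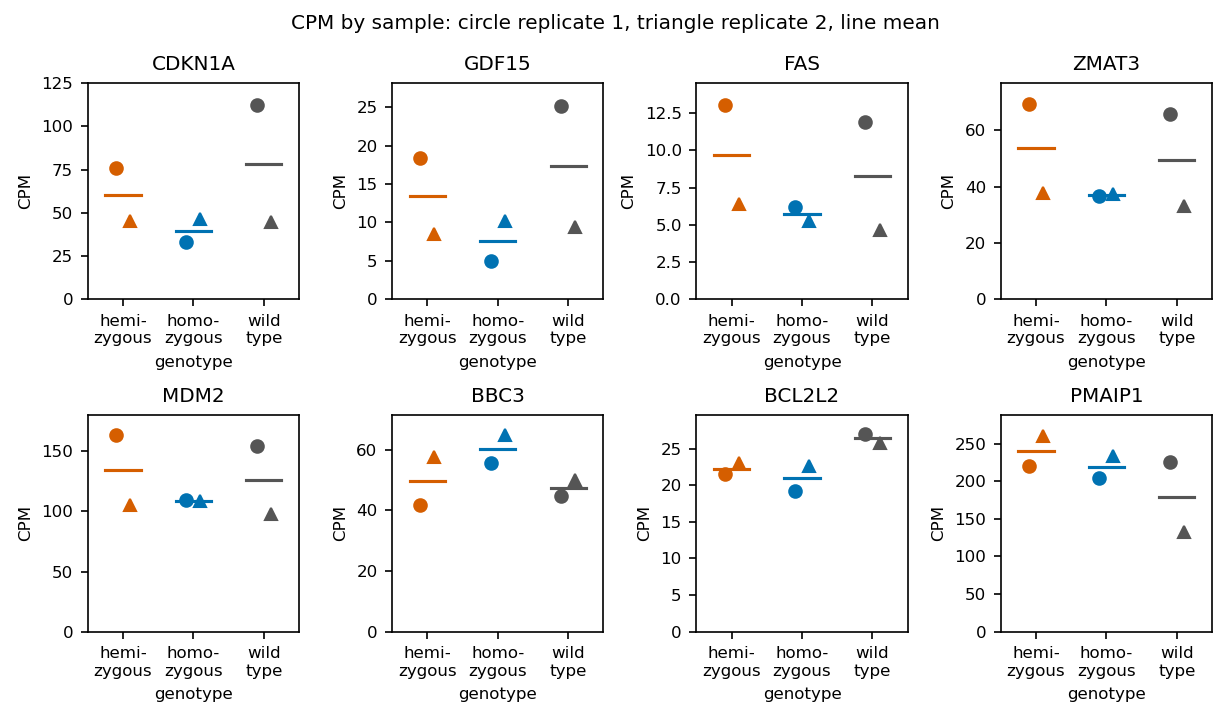
CPM of 8 members by genotype (x axis), with CPM after TMM scaling on the y axis from 0; circles are replicate 1, triangles replicate 2 and lines the mean of 2. CDKN1A, GDF15, FAS, ZMAT3 and MDM2 have 1 high circle each in hemizygous and wild type and none in homozygous, whereas BCL2L2 has both wild-type points (27.0 and 25.8 CPM) above all 4 others.

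Counted over the whole list, 11 of the 22 p53 targets had hemizygous 1 and wild type 1 as their 2 highest libraries (the 6 above with TP53I3, RRM2B, SESN1, CCNG1 and PLK3), where 25.4% of all genes did. Another 3 (BBC3, AEN and TIGAR) had them as their 2 lowest, where 24.7% of all genes did. By size, 6 of the 22 p53 targets were at least 1.5 times as high in hemizygous 1 as in hemizygous 2 (CDKN1A, MDM2, FAS, GDF15, ZMAT3 and TNFRSF10B), where 9.22% of all genes were. None of the 22 was at least 1.5 times lower there, where 11.3% of all genes were. In wild type, again 6 of 22 were at least 1.5 times as high in library 1 (the same genes with SESN1 in place of TNFRSF10B, which stood at 1.48 times), where 7.09% of all genes were, and none was that much lower, where 9.59% were. The homozygous pair went without this pattern: 0 of 22 were that much higher in homozygous 1 (3.59% of all genes) and 2, GDF15 and DDB2, were that much lower (6.75% of all genes). The median log2 ratio of library 1 to library 2 over the 22 targets was 0.19 in hemizygous, -0.11 in homozygous and 0.43 in wild type, and it was within 0.01 of 0 over all genes in each. The ratio was largest for GDF15 in wild type, 2.66 times, followed there by FAS at 2.56 times and CDKN1A at 2.51 times. AFP, the endoderm marker, moved with the same libraries, at 4.41 and 4.03 CPM in hemizygous 1 and wild type 1, against 0.742 to 1.30 CPM elsewhere. Of the 3 fibroblast or feeder markers in the table, COL1A1 did so too, at 324 and 285 CPM against 179 to 213 CPM, and COL1A2, at 150.2 and 139.5 CPM against 94.1 to 123 CPM. THY1 did not: it was at 334 and 379 CPM in hemizygous, 333 and 394 CPM in homozygous, and 420.4 and 468 CPM in wild-type libraries, lower in library 1 of each pair. Of the pluripotency markers, NANOG was at 196 and 198 CPM in hemizygous 1 and wild type 1, against 143 to 185 CPM elsewhere. PODXL, at 2810 and 2484 CPM against 2128 to 2260 CPM, and narrowly DPPA4 were highest there too. POU5F1 was lowest there, at 84.4 and 87.9 CPM against 88.0 to 129 CPM. So was SOX2, at 353 and 341 CPM against 374 to 419 CPM. LIN28A, TDGF1 and SALL4 did neither. The part of these markers, and of transcript length and GC content, in the pattern of the p53 targets was not tested.

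**Figure D2:**
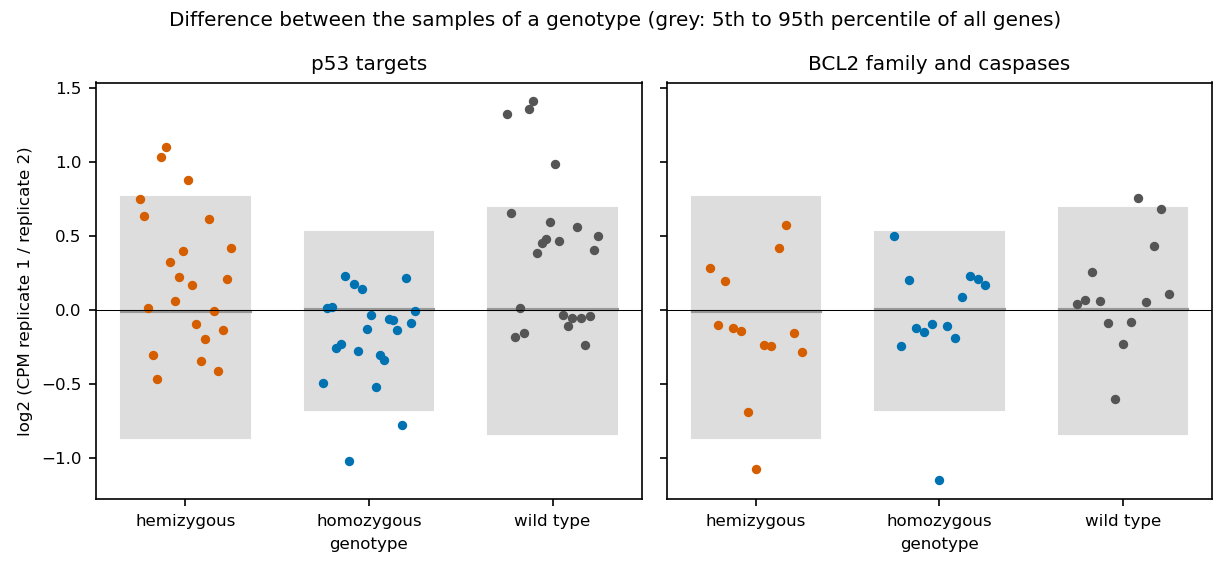
Log2 ratio of CPM in replicate 1 to replicate 2 (y axis) within each genotype (x axis), 1 point per member, p53 targets on the left and BCL2 family and caspases on the right; grey boxes span the 5th to 95th percentile of all 16199 genes and their thick lines are medians. Hemizygous and wild-type p53 targets reach up to 1.11 and 1.41, beyond the boxes' upper edges of 0.77 and 0.69. Homozygous p53 targets reach up to 0.23, under an upper edge of 0.53, and GDF15 (-1.02) and DDB2 (-0.78) lie below the lower edge of -0.68.

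Of the genes listed here as p53 targets, BAX and BBC3 act directly at mitochondria, and they did not share this pattern. BAX, the pore-forming effector, was at 111 and 137 CPM in hemizygous, 124 and 149 CPM in homozygous, and 128 and 126 CPM in wild-type libraries. BBC3, the BH3-only protein PUMA, was at 41.7 and 57.6 CPM in hemizygous, 55.5 and 64.9 CPM in homozygous, and 44.8 and 49.8 CPM in wild-type libraries. Hemizygous 1 was the lowest library for both genes, and both homozygous libraries lay above both wild-type libraries for BBC3. AEN, a nuclease of apoptotic DNA breakdown, ranged from 196 to 241 CPM, and PHLDA3, an inhibitor of AKT signalling, from 38.7 to 47.7 CPM. TP53INP1, a promoter of autophagy and cell death, was at 46.0 to 64.0 CPM. TP53I3, a quinone oxidoreductase, was at 13.2 and 15.6 CPM in hemizygous 1 and wild type 1, against 10.5 to 12.6 CPM elsewhere. The replicate ratios of all of these genes were under the 1.5-fold mark.

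Among the remaining targets, several cell cycle, repair and metabolic genes had the same 2 highest libraries with smaller ratios than CDKN1A. CCNG1, cyclin G1, was the most abundant member of the list, at 669 and 710.2 CPM in hemizygous 1 and wild type 1 and 535 to 584 CPM in the other 4 libraries. PLK3, a stress-responsive kinase, was at 9.23 and 11.1 CPM there and at 6.91 to 9.18 CPM in the others, so that hemizygous 1 and both homozygous libraries were alike. BTG2, an antiproliferative cofactor of mRNA deadenylation, was at 13.3 and 11.8 CPM in hemizygous, 7.53 and 10.8 CPM in homozygous, and 11.3 and 8.14 CPM in wild-type libraries. Both hemizygous libraries were above all 4 others for BTG2. The repair genes were RRM2B, the p53-inducible subunit of ribonucleotide reductase (237 and 233 CPM in hemizygous 1 and wild type 1, 167 to 203 CPM elsewhere), XPC, which recognises helix-distorting lesions (52.4 to 59.9 CPM), and DDB2, which recognises ultraviolet damage (83.7 to 144 CPM). Of the metabolic genes, SESN1, a stress-induced inhibitor of mTORC1 signalling, was at 59.3 and 63.0 CPM in hemizygous 1 and wild type 1 and 41.7 to 45.9 CPM elsewhere, FDXR, the mitochondrial ferredoxin reductase, at 29.4 to 41.2 CPM and TIGAR, a fructose bisphosphatase that slows glycolysis, at 15.0 to 20.0 CPM. MDM4, the p53 inhibitor related to MDM2, stayed within 108 to 123 CPM. Reads cannot be told apart where exons overlap those of another annotated gene (GENCODE 29, GRCh38). On the same strand this held for 42.6% of TIGAR exon bases, 19.1% of PHLDA3 and 19.4% of BCL2L2. On the opposite strand, which the kit does not keep apart, it held for 23.8% of XPC and 23.7% of BAD. For any other member the overlap was no more than 9.48%.

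**Figure D3:**
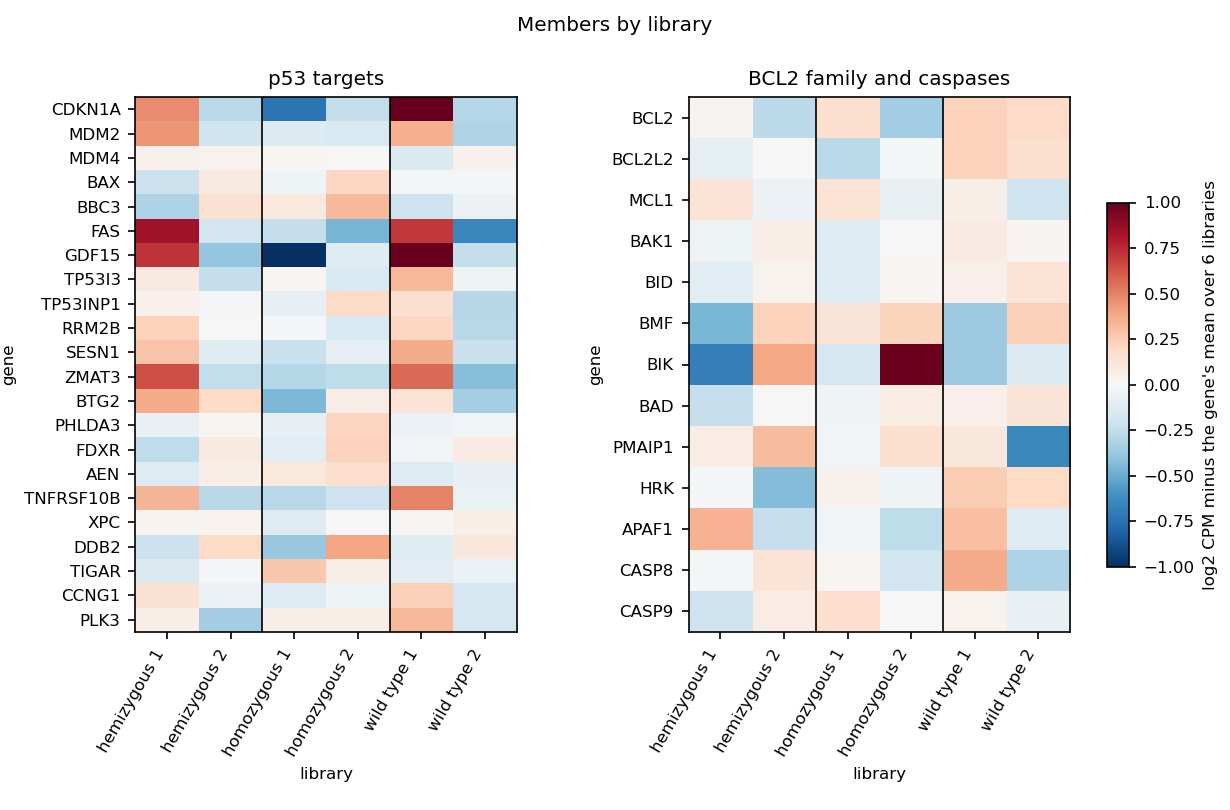
Heat map of log2 CPM minus each gene's mean over the 6 libraries, with genes down the side and libraries along the bottom; red is above the gene's mean and blue below, and colours saturate at 1 and -1. CDKN1A, MDM2, FAS, GDF15, ZMAT3 and TNFRSF10B are red in hemizygous 1 and wild type 1, and GDF15 and CDKN1A are bluest in homozygous 1.

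The promoters of both lists were searched for the p53 half-site consensus, the decamer that one p53 dimer recognises and of which a full response element holds a pair. RefSeq promoters (250 bases before to 50 after the start, GRCh38.p14) matched 29 of the 36 members. A half-site on either strand stood in 5 of 19 p53 target promoters (26.3%), in 3 of 10 promoters of BCL2 family members and caspases (30%) and in 7.56% of promoters of all genes of the table. The windows below show each site in capitals with 25 bases on both sides, except that the right side of DDB2 is cut at the promoter's end. Members that did and did not follow the pattern of hemizygous 1 and wild type 1 can thus be compared.
FAS: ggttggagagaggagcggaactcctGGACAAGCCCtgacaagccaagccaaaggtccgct
SESN1: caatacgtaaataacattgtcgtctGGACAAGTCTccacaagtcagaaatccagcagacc
DDB2: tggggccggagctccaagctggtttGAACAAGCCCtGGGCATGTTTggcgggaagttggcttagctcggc
AEN: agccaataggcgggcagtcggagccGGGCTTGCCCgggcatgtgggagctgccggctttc
FDXR: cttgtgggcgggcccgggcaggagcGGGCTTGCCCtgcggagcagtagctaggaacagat
BAK1: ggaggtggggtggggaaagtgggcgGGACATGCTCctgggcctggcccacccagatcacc
CASP8: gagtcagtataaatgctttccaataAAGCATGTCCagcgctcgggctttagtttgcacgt
CASP9: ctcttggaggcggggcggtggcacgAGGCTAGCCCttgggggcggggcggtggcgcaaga
DDB2 (chr11:47214954-47215023, plus strand) held 2 half-sites 1 base apart, and the other 7 held 1 each. FAS (chr10:88991284-88991343, plus strand) and SESN1 (chr6:109009003-109009062, minus strand) were higher in library 1 in both hemizygous and wild type, with log2 ratios of 1.03 and 1.36 for FAS and 0.40 and 0.60 for SESN1. CASP8 (chr2:201257889-201257948, plus strand) was higher in library 1 in wild type alone, with -0.16 in hemizygous and 0.68 in wild type. DDB2, AEN (chr15:88621281-88621340, plus strand) and FDXR (chr17:74872971-74873030, minus strand) were lower in library 1 in both, with -0.41 and -0.23 for DDB2, -0.19 and -0.05 for AEN, and -0.34 and -0.11 for FDXR. BAK1 (chr6:33580315-33580374, minus strand) had -0.12 and 0.06, and CASP9 (chr1:15524944-15525003, minus strand) -0.28 and 0.11. Both directions thus occurred among the promoters with a match. A match is a string of letters in this window and not a measured site, and the promoters of CDKN1A, MDM2, GDF15 and ZMAT3 are not among those printed.

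Among the listed guardians and BH3-only genes, MCL1 and PMAIP1 had the highest levels. Levels of different genes are compared in CPM per kilobase of annotated exon, as mean ± SD of 2 libraries. MCL1, the short-lived guardian, was at 99.4 ± 9.54 in hemizygous, 98.8 ± 9.88 in homozygous and 92.3 ± 11.6 in wild-type libraries on this scale. BCL2L2 (BCL-w) was at 5.31 ± 0.26, 5.0 ± 0.60 and 6.30 ± 0.21, and BCL2 at 0.60 ± 0.08, 0.61 ± 0.15 and 0.75 ± 0.02, in the same order of genotypes. MCL1 thus made up 92.4% to 95.2% of the sum of these 3 guardians per kilobase in every library. BCL2L1 (BCL-xL), a guardian that is not a member of the list, was at 31.9 ± 7.25, 27.7 ± 0.71 and 33.1 ± 5.65 on the same scale, above BCL2L2 and BCL2. With BCL2L1 and BCL2L10 in the sum, MCL1 made up 69.0% to 76.1% and BCL2L1 19.5% to 25.5%. PMAIP1, the BH3-only protein NOXA that binds MCL1, was at 107 ± 12.8 in hemizygous, 98.1 ± 9.14 in homozygous and 80.3 ± 29.3 in wild-type libraries. It held 56.8% to 74.2% of the summed BH3-only level per kilobase, which here includes BBC3, and the lowest share was that of wild type 2. With BCL2L11 (BIM), at 6.04 ± 0.54, 5.91 ± 0.63 and 5.19 ± 0.20, added to the sum, the share was 54.2% to 70.8%. The effector BAK1 followed at 21.4 ± 0.62 in wild type, then the BH3-only gene BMF at 11.7 ± 3.40. APAF1 (6.45), BCL2L2 (6.30), BAD (6.27) and BID (5.86) lay close together in wild type, and their order there is within the spread of APAF1, whose SD was 1.36. CASP9 (1.86), BIK (1.67), HRK (1.22), BCL2 (0.75) and CASP8 (0.43) were lowest, and CASP9 and BIK were about 1 SD of BIK (0.185) apart. Among p53 targets the order per kilobase in wild type began with CCNG1 (201) and BAX (49.1), with AEN at 33.2, and ended with PLK3 (2.72) and FAS (1.94).

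**Figure D4:**
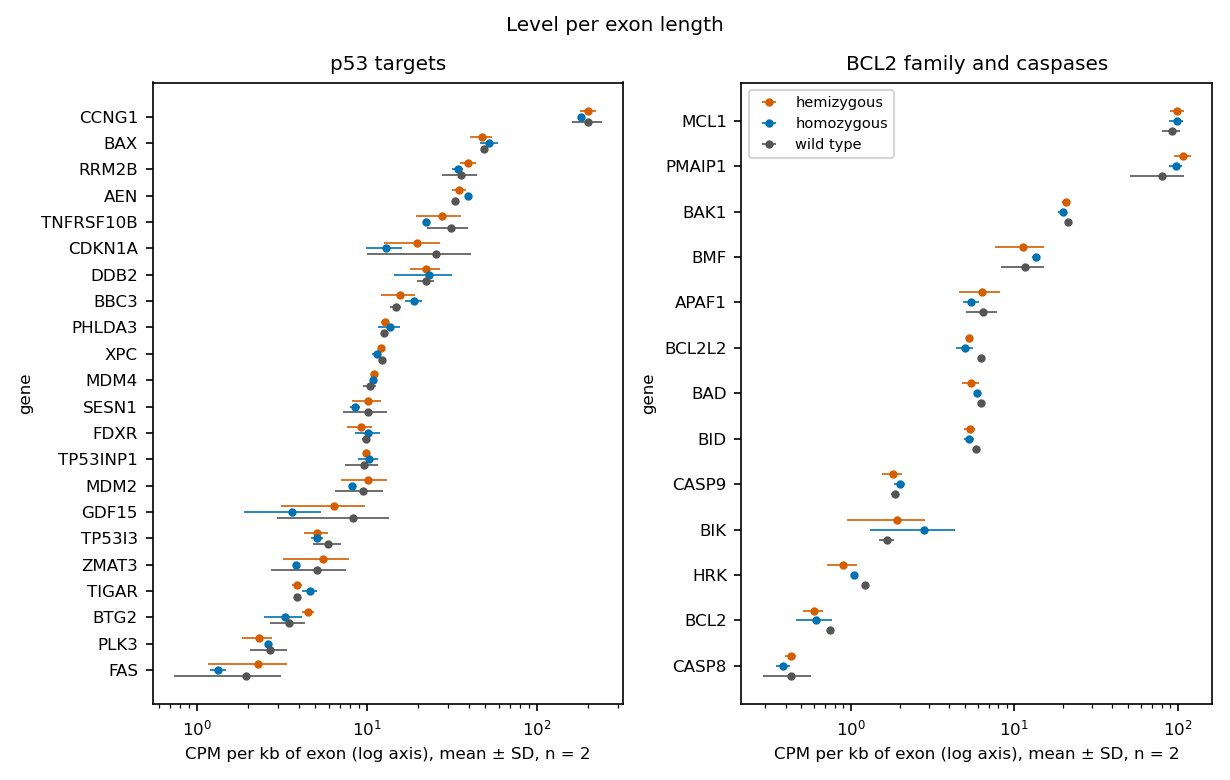
Level of each member in CPM per kilobase of exon (x axis, log scale), ordered by the wild-type mean; points are means of 2 libraries and bars their SD, with hemizygous above homozygous above wild type. CCNG1 leads the p53 targets and MCL1 and PMAIP1 lead the BCL2 family, and on this scale the widest bars are those of GDF15, FAS and CDKN1A in wild type, followed by BIK in homozygous.

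By library, most BCL2 family members and caspases did not follow the high p53 targets. MCL1 was at 464 and 405 CPM in hemizygous, 462 and 401 CPM in homozygous, and 439 and 367 CPM in wild-type libraries. Library 1 was the higher of each pair for MCL1, by 1.15 to 1.20 times. BCL2 was at 7.72 and 6.32 CPM in hemizygous, 8.48 and 5.98 CPM in homozygous, and 8.93 and 8.67 CPM in wild-type libraries, and BCL2L2 at 21.5 and 23.0, 19.2 and 22.7, and 27.0 and 25.8 CPM in the same order. For both guardians, all 4 edited libraries were below both wild-type libraries. PMAIP1 was at 219.9 and 260.4 CPM in hemizygous, 205 and 234 CPM in homozygous, and 226 and 133 CPM in wild-type libraries. Wild type 2 was the low library for PMAIP1, so the genotypes overlapped through wild type 1. HRK, a BH3-only gene best known from neurons, was at 7.09 and 5.29 CPM in hemizygous, 7.38 and 6.94 CPM in homozygous, and 8.52 and 8.21 CPM in wild-type libraries. BIK, a BH3-only protein of the endoplasmic reticulum, was at 1.17 and 2.47 CPM in hemizygous, 1.67 and 3.72 CPM in homozygous, and 1.47 and 1.71 CPM in wild-type libraries, from 45 to 151 counts. HRK was lower in all 4 edited libraries, and BIK was carried by homozygous 2 and hemizygous 2.

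The apoptosome genes differed from each other. APAF1 was at 60.4 and 40.5 CPM in hemizygous, 46.6 and 39.8 CPM in homozygous, and 58.6 and 43.4 CPM in wild-type libraries. It was high in hemizygous 1 and wild type 1, the libraries in which CDKN1A was high, by 1.49 and 1.35 times over their partners. CASP9 was at 8.58 and 10.4 CPM in hemizygous, 11.1 and 9.92 CPM in homozygous, and 10.2 and 9.41 CPM in wild-type libraries, with hemizygous 1 the lowest. CASP8, the caspase of death receptors, was at 2.40 to 3.86 CPM, BAK1 at 42.0 to 48.3 CPM, BID, which caspase-8 cleaves, at 22.3 to 26.8 CPM, BAD, which growth factor signals silence by phosphorylation, at 8.55 to 11.0 CPM and BMF, linked to the cytoskeleton and loss of attachment, at 47.5 to 77.1 CPM.

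The same counts were made for the BCL2 family and caspases. The lists are not strictly separate: PMAIP1 and APAF1 were counted here, and were also tried among the p53 targets (see the last section). Hemizygous 1 and wild type 1 were the 2 highest libraries for 1 of 13 (APAF1), where 25.4% of all genes had them highest, and the 2 lowest for 2 (BMF and BIK), where 24.7% did. Of these 13, 0 were at least 1.5 times as high in hemizygous 1 as in hemizygous 2, against 6 of 22 p53 targets and 9.22% of all genes, and 2 were that much lower (BMF and BIK), where 11.3% of all genes were. In wild type, 2 of 13 were that much higher in library 1 (PMAIP1 and CASP8; 7.09% of all genes) and 1 lower (BMF; 9.59% of all genes). In homozygous libraries 0 were higher (3.59% of all genes) and 1, BIK, was lower (6.75% of all genes). In a list of 13, these counts by size lie close to the shares of all genes. The median log2 ratio of library 1 to library 2 was -0.14 in hemizygous, -0.10 in homozygous and 0.06 in wild type, where the p53 targets had 0.19, -0.11 and 0.43. These are descriptions of single pairs of libraries, and no test was made of the difference between the lists.

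In hemizygous against wild-type cells no member passed the edgeR quasi-likelihood test, and the fold changes were small. The test called 0 of 16199 genes at a Benjamini-Hochberg adjusted p under 0.05 in either direction (141 genes at an unadjusted p under 0.05; DESeq2 called 7 and limma-voom 0), and it called 0 of 35 members, so the background of called genes was 0%. No member was under an unadjusted p of 0.05, where 0.87% of all genes were. PMAIP1 had the highest log2 fold change, 0.42 ± 0.25 (SE), followed by BTG2 with 0.37 ± 0.25 and FAS with 0.23 ± 0.50. The value of PMAIP1 was 0.86 without wild type 1, 0.10 without wild type 2 and 0.97 without hemizygous 1 and wild type 1, and that of BTG2 0.63, 0.16 and 0.54. HRK had the lowest, -0.44 ± 0.22, followed by CDKN1A with -0.38 ± 0.45 and GDF15 with -0.37 ± 0.57 (edgeR adjusted p = 1.00 for each). Over the lists, 13 of 22 p53 targets were above 0 with a median of 0.01, and 3 of 13 BCL2 family members and caspases were above 0 with a median of -0.04, where the median of all genes was 0.00. When 1 library was left out in turn, these medians ranged from -0.11 to 0.10 and from -0.19 to 0.014. No member reached 0.5 in size, where 3.4% of all genes did.

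The values of several p53 targets in this comparison rested on wild type 1. Without it, the log2 fold change was 0.44 for CDKN1A, 0.51 for GDF15, 1.07 for FAS, 0.69 for ZMAT3 and 0.46 for MDM2. Without hemizygous 1 they were -0.79, -1.01, -0.37, -0.39 and -0.25. Without both they were 0.02, -0.14, 0.47, 0.19 and 0.11, and edgeR called no member in any of these fits. TNFRSF10B, at -0.18 ± 0.26 with all libraries, was at 0.14, -0.51 and -0.20 in the same order of fits. By contrast BCL2, BCL2L2 and HRK were below 0 in every such fit, between -0.65 and -0.16. BAD and BID were too, between -0.23 and -0.05, as was the p53 target TP53I3, between -0.38 and -0.01. Both hemizygous libraries lay below both wild-type libraries for 5 of 13 BCL2 family members and caspases (BCL2, BCL2L2, HRK, BAD and BID), where 9.21% of all genes did, and above them for 0 (8.13% of all genes). For p53 targets the counts were 0 below and 1 above (BTG2). The main log2 fold changes were -0.33 ± 0.24 for BCL2, -0.25 ± 0.15 for BCL2L2, -0.20 ± 0.18 for BAD and -0.13 ± 0.14 for BID (edgeR adjusted p = 1.00 for each). BAX and BBC3 were at -0.04 ± 0.16 and 0.07 ± 0.19, MDM2 and MCL1 at 0.09 ± 0.28 and 0.11 ± 0.16, and APAF1 and CASP9 at -0.02 ± 0.24 and -0.04 ± 0.19. Each of these 6 values changed sign when some library was left out, and they then lay between -0.33 and 0.46.

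Homozygous cells had lower mean levels of CDKN1A and GDF15 than wild type, without passing the test, and these differences too came mostly from wild type 1. CDKN1A averaged 39.5 ± 9.44 CPM in homozygous libraries, against 78.4 ± 47.8 CPM in wild type (SD, n = 2 each). Its log2 fold change was -0.99 ± 0.45 (SE; edgeR unadjusted p = 0.0678, adjusted p = 1.00), and -0.17 without wild type 1. GDF15 averaged 7.62 ± 3.67 CPM in homozygous libraries, against 17.3 ± 11.1 CPM in wild type, with a log2 fold change of -1.19 ± 0.59 (edgeR adjusted p = 1.00), and -0.30 without wild type 1. FAS followed with -0.53 ± 0.50, which was 0.31 without wild type 1. At the other end BIK had 0.76 ± 0.50, which was 0.08 without homozygous 2 and 1.23 without homozygous 1, BBC3 had 0.35 ± 0.19 and PMAIP1 0.29 ± 0.25, which was 0.73 without wild type 1 and -0.03 without wild type 2. BBC3 kept its sign and lay between 0.23 and 0.46 when each library was left out in turn.

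**Figure D5:**
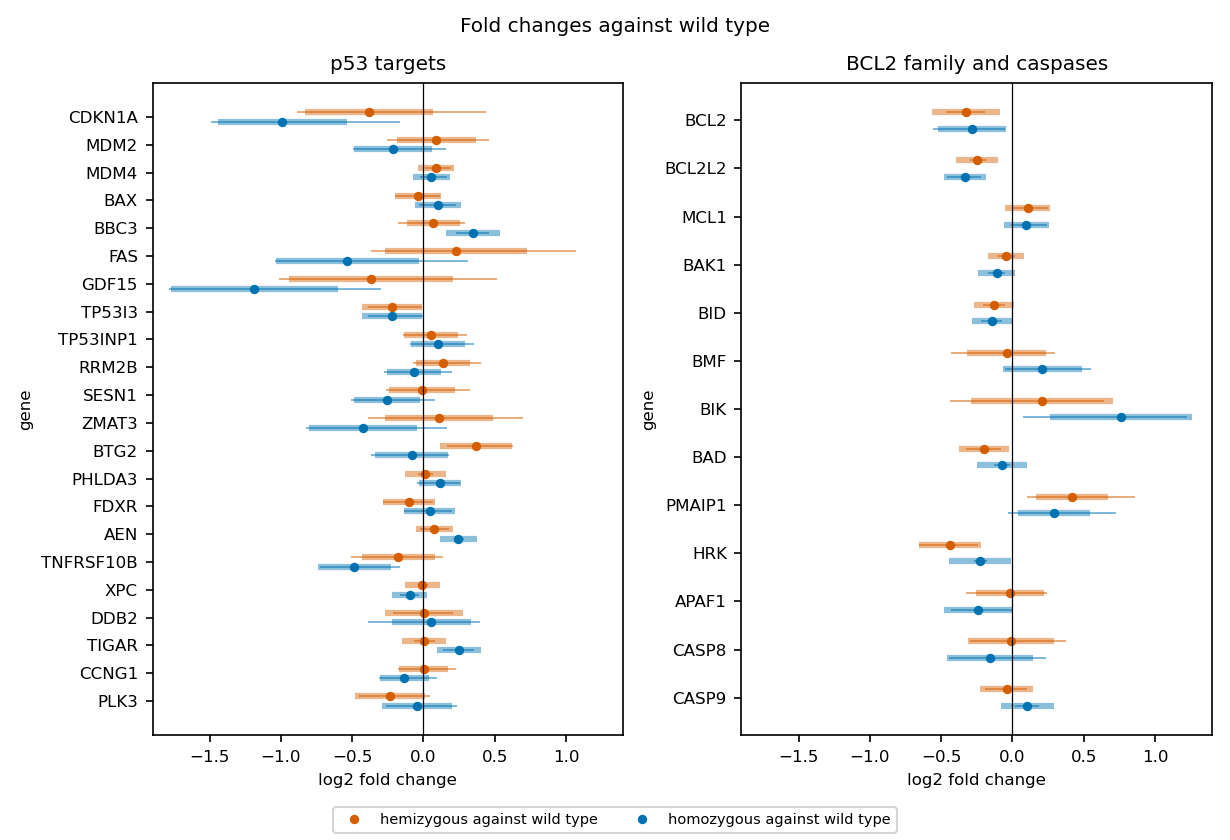
Log2 fold change of each member (x axis) in hemizygous (orange, upper) and homozygous (blue, lower) against wild type; points are edgeR estimates from all 6 libraries, thick bars ± 1 SE and thin lines the range when each library is left out in turn. GDF15, FAS and CDKN1A have the longest thin lines, followed by BIK in homozygous. The thin lines of BCL2, BCL2L2, HRK, BID, BAD and, narrowly, the p53 target TP53I3 stay left of 0 in both comparisons, which share the 2 wild-type libraries.

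Here too edgeR called 0 genes in either direction (435 at an unadjusted p under 0.05; DESeq2 called 10 and limma-voom 0), so 0 of 35 members and a background of 0%. No member had an unadjusted edgeR p under 0.05, where 2.69% of all genes did. The median log2 fold change was -0.08 for p53 targets, with 9 of 22 above 0, and -0.11 for BCL2 family members and caspases, with 5 of 13 above 0. Without wild type 1 these medians were 0.11 and -0.05, and without wild type 2 they were -0.27 and -0.09. Past 0.5 in size were 3 of 22 p53 targets (GDF15, CDKN1A and FAS) and 1 of 13 others (BIK), where 8.2% of all genes were. Both homozygous libraries lay below both wild-type libraries for 5 of 13 BCL2 family members and caspases (BCL2, BCL2L2, HRK, BID and BAK1), where 13.6% of all genes did, and above them for 0. Among p53 targets, 2 of 22 lay below (TNFRSF10B and XPC) and 3 above (AEN, TIGAR and BBC3), where 14.2% of all genes lay above. BCL2L2 had -0.34 ± 0.15 (edgeR unadjusted p = 0.0591, adjusted p = 1.00) and remained between -0.46 and -0.22 when each library was left out. BCL2 had -0.28 ± 0.24, HRK -0.22 ± 0.22, MDM2 -0.21 ± 0.28, APAF1 -0.24 ± 0.24, BAX 0.10 ± 0.16, MCL1 0.10 ± 0.16 and CASP9 0.11 ± 0.19. Without wild type 1, MDM2 was at 0.16 and APAF1 at 0.00. Without homozygous 2, BCL2 was at -0.05 and BAX at -0.03. Both comparisons with wild type share the same wild-type libraries, so that the low values of BCL2, BCL2L2, HRK and BID in both are not separate observations.

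Homozygous against hemizygous cells, a comparison that does not use the wild-type levels, had its lowest member fold changes among the p53 targets that were high in hemizygous 1. The edgeR test called 0 genes in either direction (124 at an unadjusted p under 0.05, 0.765% of genes, with 0 members; DESeq2 called 10 and limma-voom 0). Both homozygous libraries lay below both hemizygous libraries for 6 of 22 p53 targets (FAS, ZMAT3, BTG2, RRM2B, XPC and MDM4), where 10.4% of all genes did, and above them for 2 (AEN and TIGAR), where 11% did. For the BCL2 family and caspases the counts were 0 and 0. The lowest log2 fold changes were -0.82 ± 0.58 for GDF15, -0.76 ± 0.50 for FAS, -0.61 ± 0.45 for CDKN1A and -0.53 ± 0.38 for ZMAT3 (edgeR adjusted p = 1.00 for each), and they were -0.16, -0.16, -0.18 and -0.02 without hemizygous 1. Past 0.5 in size were these 4 of 22 p53 targets and 1 of 13 others (BIK, 0.55 ± 0.49), where 6.15% of all genes were. BIK was at -0.13 without homozygous 2 and 1.19 without hemizygous 2. BTG2 had -0.45 ± 0.25 and was at -0.36 without hemizygous 1, -0.73 without homozygous 2 and -0.21 without homozygous 1. BCL2 and BCL2L2 had 0.05 ± 0.24 and -0.09 ± 0.15, close to 0, and the medians were -0.06 for p53 targets and -0.01 for the other list, or -0.02 and 0.01 without hemizygous 1.

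Matches to microRNA seeds were looked up in the 3′ UTRs because the edited enzyme makes microRNAs. The seed is bases 2 to 8 of the mature strand, shown in capitals (RefSeq, GRCh38.p14). The 4 microRNAs below are abundant in human embryonic stem cells (miR-302a and miR-372), part of the MIR17 cluster (miR-17), and known to act on BCL2 (miR-16).
miR-302a-3p: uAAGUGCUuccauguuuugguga
miR-372-3p: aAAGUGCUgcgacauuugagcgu
miR-17-5p: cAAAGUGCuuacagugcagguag
miR-16-5p: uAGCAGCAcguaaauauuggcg
The strands of miR-302a and miR-372 share a seed, and that of miR-17 is the same run shifted by 1 base, so their matches often coincide. The longest 3′ UTR of CDKN1A (GENCODE 29) held 2 matches to miR-17-5p and 1 to miR-16-5p, that of BCL2 2 and 1, and that of BCL2L2 2 and 4, with the match in capitals in these examples.
CDKN1A with miR-17-5p, first: agaagtaaacagatgGCACTTTg
CDKN1A with miR-17-5p, second: cctccccagttcattGCACTTTg
CDKN1A with miR-16-5p: tctgcaattcccctcTGCTGCTg
BCL2 with miR-16-5p: gaatatccaatcctgTGCTGCTa
BCL2L2 with miR-16-5p, first: ccagaccgagggctcTGCTGCTt
MCL1 with miR-302a-3p and miR-372-3p: ctctaaggacctaaaAGCACTTt
MCL1 with miR-17-5p: tctaaggacctaaaaGCACTTTa
On GRCh38 the CDKN1A matches lie at chr6:36686253-36686275, chr6:36686933-36686955 and chr6:36686589-36686611 (plus strand), that of BCL2 at chr18:63126089-63126111 (minus strand) and that of BCL2L2 at chr14:23309623-23309645 (plus strand). The MCL1 matches to the 2 seeds, at chr1:150575143-150575165 and chr1:150575142-150575164 (minus strand), lie 1 base apart. A miR-17-5p match stood in 9 of 22 p53 targets (40.9%) and 5 of 13 of the other list (38.5%), where 26.4% of table genes with a 3′ UTR had one. For the seed of miR-302a-3p and miR-372-3p the shares were 31.8% and 23.1%, against 26.8% of table genes, and for miR-16-5p 45.5% and 38.5%, against 28.9%. Of the other 3 seeds searched, miR-92a-3p had 22.7% and 30.8%, against 13.7%. For miR-34a-5p the shares were 22.7% and 30.8%, against 20.2%, and for miR-125a-5p 36.4% and 53.8%, against 18.6%. These shares take no account of UTR length, and a longer UTR has more places for a match. The UTR searched was the longest stretch after a stop codon in any annotated transcript of a gene. At least in DDB2, FDXR and XPC it crosses introns, so some matches there may lie in exons that other transcripts translate. Among members with a match, the UTR searched ran from 379 bases (BAD) to 9419 (MDM4) and 10837 (MDM2). In MDM2, MDM4, ZMAT3 and TIGAR a miR-17-5p match followed the same run of bases. Higher shares are therefore not read as enrichment.

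Members with and without such matches were compared by their medians for all 6 seeds searched. In hemizygous against wild type, the median log2 fold change was 0.01 for the 14 members with a miR-17-5p match and -0.02 for the 21 without, and 0.03 for the 10 with a match to miR-302a-3p and miR-372-3p and -0.04 for the 25 without. In homozygous against wild type these medians were -0.05 and -0.08, and 0.06 and -0.10. For miR-16-5p, with 15 members, they were -0.01 with and 0.00 without in hemizygous, and -0.10 with and -0.07 without in homozygous libraries. For miR-92a-3p, with 9 members, they were 0.00 with and -0.01 without in hemizygous, and -0.11 with and -0.07 without in homozygous libraries. For miR-34a-5p, with 9 members, they were -0.01 on both sides in hemizygous, and 0.06 with and -0.12 without in homozygous libraries. For miR-125a-5p, with 15 members, they were 0.01 with and -0.02 without in hemizygous, and 0.06 with and -0.14 without in homozygous libraries. The gap between the medians was thus widest for miR-125a-5p and miR-34a-5p in homozygous against wild type. Over all table genes with a 3′ UTR the medians there were -0.03 with and -0.02 without a match for both seeds. They were -0.05 and -0.01 for miR-302a-3p and miR-372-3p, -0.04 and -0.01 for miR-17-5p and for miR-16-5p, and -0.04 and -0.02 for miR-92a-3p. The members thus had the same order as all genes for miR-16-5p and miR-92a-3p, and the reverse order for the other seeds. These values are given as a description with no test.

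The wider pathway was followed in 3 further lists, of which 22 of 24 regulators of p53, 28 of 30 further p53 targets and 28 of 31 further genes of the death machinery were in the table. In edgeR no gene of these 78 passed in any of the 3 comparisons. Under an unadjusted edgeR p of 0.05 were 2 (MOAP1 and SFN) in each comparison with wild type. Of all genes, 0.87% were in hemizygous and 2.69% in homozygous against wild type, so the latter count is near the share of all genes. In homozygous against hemizygous 1 was (MOAP1), where 0.765% of all genes were. SFN was lower than in wild type, with -0.62 ± 0.23 in hemizygous and -0.71 ± 0.23 in homozygous libraries. TRIM22, an antiviral p53 target, was at 57.5 and 25.6 CPM in hemizygous, 17.5 and 26.3 CPM in homozygous, and 62.6 and 24.6 CPM in wild-type libraries. TRIM22 had -1.0 ± 0.53 in homozygous against wild type, and -0.16 without wild type 1, with the high values in hemizygous 1 and wild type 1, as for CDKN1A. The lowest of the genes named in hemizygous against wild type was MOAP1, which encodes a BAX-binding protein. MOAP1 was at 0.130 and 0.0949 CPM in hemizygous, 0.859 and 1.03 CPM in homozygous, and 1.72 and 1.84 CPM in wild-type libraries. The 3 genotypes did not overlap at this low level, and the log2 fold change in hemizygous against wild type was -3.97 ± 0.38 (edgeR adjusted p = 0.178, DESeq2 adjusted p = 7.19e-06). DESeq2 also called MOAP1 in homozygous against hemizygous (adjusted p = 0.0108), and it was the only gene of the 78 that DESeq2 called.

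The highest of these genes in hemizygous against wild type were SIRT1, a deacetylase that acts on p53, with 0.31 ± 0.16, and TNFRSF10A, the TRAIL receptor DR4, with 0.25 ± 0.43. TNFRSF10A was at 14.2 and 6.70 CPM in hemizygous, 7.01 and 5.24 CPM in homozygous, and 11.3 and 6.14 CPM in wild-type libraries, and its log2 fold change was 0.77 without wild type 1 and -0.37 without hemizygous 1. In homozygous against wild type they were PPP1R13L, the p53 inhibitor iASPP, with 0.36 ± 0.41, and BCL2L10, a guardian of the BCL2 family, with 0.27 ± 0.37 (edgeR adjusted p = 1.00 for each). The value of BCL2L10 was -0.14 without homozygous 2 and 0.60 without homozygous 1. SIRT1 was at 202 and 188 CPM in hemizygous, 207 and 173 CPM in homozygous, and 173 and 142 CPM in wild-type libraries. PPP1R13L ran opposite to CDKN1A, at 8.19 and 15.4 CPM in hemizygous, 13.9 and 15.3 CPM in homozygous, and 7.44 and 15.3 CPM in wild-type libraries. It was thus lowest in hemizygous 1 and wild type 1, and its log2 fold change was -0.06 without wild type 1. The median log2 fold change of the 28 further p53 targets was -0.03 in hemizygous and -0.19 in homozygous against wild type, that of the regulators 0.03 and -0.03, and that of the death machinery -0.02 and -0.08, where the median of all genes was 0.00 in both. Without wild type 1 the further p53 targets had 0.20 and -0.01, the regulators 0.04 and 0.01, and the death machinery 0.08 and 0.04. Without hemizygous 1 the further p53 targets had -0.21 in hemizygous against wild type.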

How the data were processed

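RNA of H1 cells was sequenced in 6 libraries, 2 for each of 3 genotypes, taken from the sample titles. Per the labels' protocols, total RNA and the TruSeq RNA Library Prep Kit v2 were used; per the submitters' processing notes, reads were trimmed with cutadapt and aligned with HISAT2 to hg38. No source used here names the counting program or its annotation. The authors deposited raw counts for each gene. From these, edgeR 4.0.16 in R 4.3.3 was fitted to all genes and 6 libraries: TMM scaling, filterByExpr (0 genes removed), quasi-likelihood test, Benjamini-Hochberg adjustment, 3 residual degrees of freedom. It was tested on simulated data. limma 3.58.1 and DESeq2 1.42.0 were alternatives. Positions, exon lengths and 3′ UTRs came from GENCODE 29. Values by library are given for 10 key members, any member with an unadjusted p under 0.05 (none) and the 3 highest and 3 lowest log2 fold changes against wild type; ZMAT3, TNFRSF10B, BCL2L1 and BCL2L11 were added after their values were seen. From the wider lists the 2 highest and 2 lowest are named, except for an item not reported here. Members and lists were chosen with earlier results of these data known. No library was a copy of another (chi-square over its degrees of freedom was 11.5 to 97.4 for each pair).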

Additional observations from a re-analysis of the deposited data

How the results depend on the processing

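No member was called under any setting. With DESeq2 the genes called were 7 (3 higher, 4 lower) in hemizygous against wild type, 10 (5 and 5) in homozygous against wild type and 10 (8 and 2) in homozygous against hemizygous. Leaving out 1 library at a time gave 0 to 2, 0 to 1 and 0 to 3 calls in the same order. A genotype left with 1 library is then assumed to vary like the others. Leaving out hemizygous 1 and wild type 1 together, chosen after seeing the data, gave 12 (5 and 7), 21 (8 and 13) and 16 (10 and 6). RLE scaling, no filter, a mean CPM of at least 1, limma-voom and only the 4 samples compared gave 0 calls each. The cause of the other changes was not tested. The p53 target median in homozygous against wild type was -0.27 to 0.11 when 1 library was left out and 0.11 without both. That of the BCL2 family and caspases was -0.11 to -0.050 and -0.051 without both, and in hemizygous against wild type it was -0.19 to 0.014. In homozygous against hemizygous it was 0.045 with BAX and BBC3 added, and 0.045 with PMAIP1 and APAF1 moved to the p53 targets. Of 105 log2 fold changes of members, 25 moved by more than the spread between replicates without wild type 1, 2 without wild type 2, 8 and 12 without hemizygous 1 and 2, 10 and 10 without homozygous 1 and 2, 23 without hemizygous 1 and wild type 1, and 0 under each setting of scaling, filter or test.

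The groups share replicate numbers, but the labels do not say what a number marks and there are only 2, so the libraries were not treated as paired. Deviations of replicate 1 from the genotype mean correlated at 0.74 for hemizygous and wild type, 0.47 for hemizygous and homozygous and 0.35 for homozygous and wild type over 16198 genes. With the replicate block edgeR called 1 gene in hemizygous against wild type, 0 in homozygous against wild type and 1 in homozygous against hemizygous. In the same order, this edgeR fit gave 1, 4 and 2 of 35 members an unadjusted p under 0.05. Of 16199 genes, 616, 1942 and 1328 had one, so the members did not stand out. The lowest edgeR adjusted p of a member was 0.349.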
